A study of Mus musculus with 4 samples.

Results

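Cyp2e1, Cyp1a2 and Cyp2f2 are 3 cytochrome P450 genes of mouse hepatocytes, chosen by their symbols among the 32285 genes of the deposited matrices, and each symbol matched 1 row. They were followed over 4 Visium sections of mouse liver, an assay that captures the messenger RNA of a tissue section on a hexagonal array of barcoded spots and counts unique molecular identifiers (UMIs). STAM20w and STAM16w came from STAM, a metabolic mouse model of hepatocellular carcinoma that resembles steatohepatitis with type I diabetes, at 20 and 16 weeks. DEN30w and DEN22w came from the fibrotic DEN+CCl4 model, in which diethylnitrosamine, a carcinogen that alkylates DNA, is combined with the hepatotoxic solvent carbon tetrachloride at 30 and 22 weeks. The labels do not say what the weeks count, give no strain, sex or dose, include no untreated liver, and name no animals behind the sections, so that the p-values below reflect no more than the spread among these 4 sections. The models share no labelled time, so that model and time cannot be told apart.

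A cytochrome P450 is a haem enzyme that inserts oxygen into drugs, solvents and lipids, with electrons handed over by P450 oxidoreductase. Blood crosses the liver lobule from the portal vein to the central vein, and hepatocytes divide their work along that path: those near the portal vein make glucose and urea, those near the central vein make glutamine and carry most P450 enzymes, under Wnt signals from the endothelium of the central vein. Cyp2e1 oxidises ethanol, acetone and small solvents and is the enzyme known for turning carbon tetrachloride and short nitrosamines into their reactive products. Cyp1a2 oxidises caffeine and aromatic amines and is a target of the aryl hydrocarbon receptor. Both are known as pericentral genes in mouse liver, while Cyp2f2, which oxidises naphthalene and styrene, is a textbook periportal marker.

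Cyp2e1 (ENSMUSG00000025479) lies on chromosome 7 from 140763819 to 140774990, Cyp1a2 (ENSMUSG00000032310) on chromosome 9 from 57676937 to 57683655, and Cyp2f2 (ENSMUSG00000052974) on chromosome 7 from 27119955 to 27133660, in RefSeq's GRCm38.p6 annotation. The proximal promoters are shown because the first pair of genes ran together across the tissue and Cyp2f2 ran against them. Each window holds 250 bases before and 50 after the RefSeq start of transcription, 5′ to 3′ on the strand of the gene: chr7:140763569-140763868 on the plus strand for Cyp2e1, chr9:57683606-57683905 on the minus strand for Cyp1a2 and chr7:27119705-27120004 on the plus strand for Cyp2f2. Capitals mark matches to any of 7 motifs searched on both strands.
Cyp2e1: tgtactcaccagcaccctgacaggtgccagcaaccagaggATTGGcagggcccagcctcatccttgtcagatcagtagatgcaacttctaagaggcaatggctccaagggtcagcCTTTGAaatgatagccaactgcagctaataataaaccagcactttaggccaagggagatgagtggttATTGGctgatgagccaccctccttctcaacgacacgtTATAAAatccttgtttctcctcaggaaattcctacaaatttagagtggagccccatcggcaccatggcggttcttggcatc
Cyp1a2: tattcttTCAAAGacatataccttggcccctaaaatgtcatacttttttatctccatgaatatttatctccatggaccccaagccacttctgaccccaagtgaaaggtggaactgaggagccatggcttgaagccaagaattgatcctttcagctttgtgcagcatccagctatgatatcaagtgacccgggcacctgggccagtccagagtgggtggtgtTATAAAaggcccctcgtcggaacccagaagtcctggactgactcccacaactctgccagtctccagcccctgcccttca
Cyp2f2: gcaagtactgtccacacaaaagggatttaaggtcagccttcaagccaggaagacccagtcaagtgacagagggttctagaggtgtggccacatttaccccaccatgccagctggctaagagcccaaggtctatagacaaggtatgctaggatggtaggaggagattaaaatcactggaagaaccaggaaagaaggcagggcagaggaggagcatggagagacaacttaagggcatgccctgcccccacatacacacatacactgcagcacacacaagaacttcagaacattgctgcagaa
The TATA box was searched as TATAAA and the promoter box of its own name as CCAAT. The core site of the aryl hydrocarbon receptor was searched as GCGTG, and that of the Wnt effectors TCF/LEF as CTTTGA. Of the liver factors, the core of the HNF1 site was searched as GTTAAT, that of the HNF4 site as CAAAGT, and the C/EBP motif as TTGCNNAA. The reverse complement of CAAAGT shares 5 letters with CTTTGA, and no match found here overlapped another. Cyp2e1 held TATAAA at -31 from the start of transcription, CTTTGA at -135 and 2 CCAAT boxes on the other strand, written ATTGG, at -210 and -68. Cyp1a2 held the TATA box letters at -29, and at -243 the TCF/LEF core on the other strand, written TCAAAG. None of the 7 was found in the Cyp2f2 window. Of 32851 RefSeq promoters of the same length, 13.6% held the TATA box letters, 37.4% the CCAAT box, 32.4% the aryl hydrocarbon receptor core, 16% the TCF/LEF core, 7.10% the HNF1 core, 14.4% the HNF4 core and 10.8% the C/EBP motif. A match is a description of these letters and not of a site in use.

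Spots with at least 500 UMIs and 250 detected genes were kept, 2833 of 2895 in STAM20w, 2080 of 2082 in STAM16w, 2968 of 3073 in DEN30w and 2746 of 2804 in DEN22w, with section medians of 7302.5 to 12761 UMIs per spot. The slides carry the same printed barcodes, so 1136 barcodes occurred in all 4 sections without marking shared tissue. STAM20w stood apart from the other sections: clustering its spots without the 3 genes gave 3 compact regions, in which 80% or more of contacts between touching spots stayed within the region, and no other section had one. They are called by their leading genes the Maoa-Plat-Nupr1, the Cib3-Gsta1-Apoc2 and the Afp-Fabp4-Fabp5 region and held 671 of the 2833 spots. The main values of STAM20w are given with and without them.

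All 3 genes were abundant, with 5134 to 71893 UMIs per section and ranks of 46 to 604 by UMIs among all genes of a section. CPM below are UMIs of the gene per 1000000 UMIs of the section or class of spots, and exact Poisson 95% intervals cover counting error only. A lower level in a section or class of spots can mean fewer hepatocytes of a zone or less RNA per hepatocyte, which cannot be told apart here. Cyp2e1 was at 1797 CPM in STAM20w (interval 1784 to 1810) and 2314 in STAM16w (2294 to 2335), against 1061 in DEN30w (1051 to 1072) and 1080 in DEN22w (1067 to 1094). Both STAM sections lay above both DEN+CCl4 sections. Cyp1a2 was at 338 CPM in STAM20w (333 to 344) and 248 in STAM16w (241 to 255), against 512 in DEN30w (504 to 519) and 517 in DEN22w (508 to 527). Here both STAM sections lay below both DEN+CCl4 sections. The models were likewise without overlap for 57.7% of the genes tested, and neither gene passed edgeR's comparison of models below. Cyp2f2 was at 557 CPM in STAM20w (550 to 564) and 860 in STAM16w (847 to 872), against 780 in DEN30w (771 to 789) and 1370 in DEN22w (1354 to 1385), so the models overlapped and DEN22w was the highest section. Whether the 3 genes are captured equally well was not tested, so the order of the 3 genes within a section is left without comment.

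The spread of a gene over the spots of a section was measured as its coefficient of variation after removing the Poisson part. For Cyp2e1 it was alike in the 4 sections, at 0.545 in STAM20w, 0.454 in STAM16w, 0.469 in DEN30w and 0.566 in DEN22w. For Cyp2f2 it was 0.645 in STAM20w and 0.485 in STAM16w, against 0.337 in DEN30w and 0.310 in DEN22w. Cyp1a2 had 1.78 in STAM20w, 0.617 in STAM16w, 0.362 in DEN30w and 0.458 in DEN22w, so that it was the most uneven of the 3 genes in both STAM sections. The value of Cyp1a2 in STAM20w was 1.46 without the compact regions. The tenth of spots richest in Cyp1a2 held 65.2% of its UMIs in STAM20w (44.7% without the compact regions), against 28.5% in STAM16w, 13.2% in DEN30w and 18.3% in DEN22w. The median spot of STAM20w had 0.938 Cyp1a2 UMIs per 10000, below the 1.87 of STAM16w, 4.73 of DEN30w and 4.87 of DEN22w, although its summed level was above that of STAM16w.

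**Figure D1:**
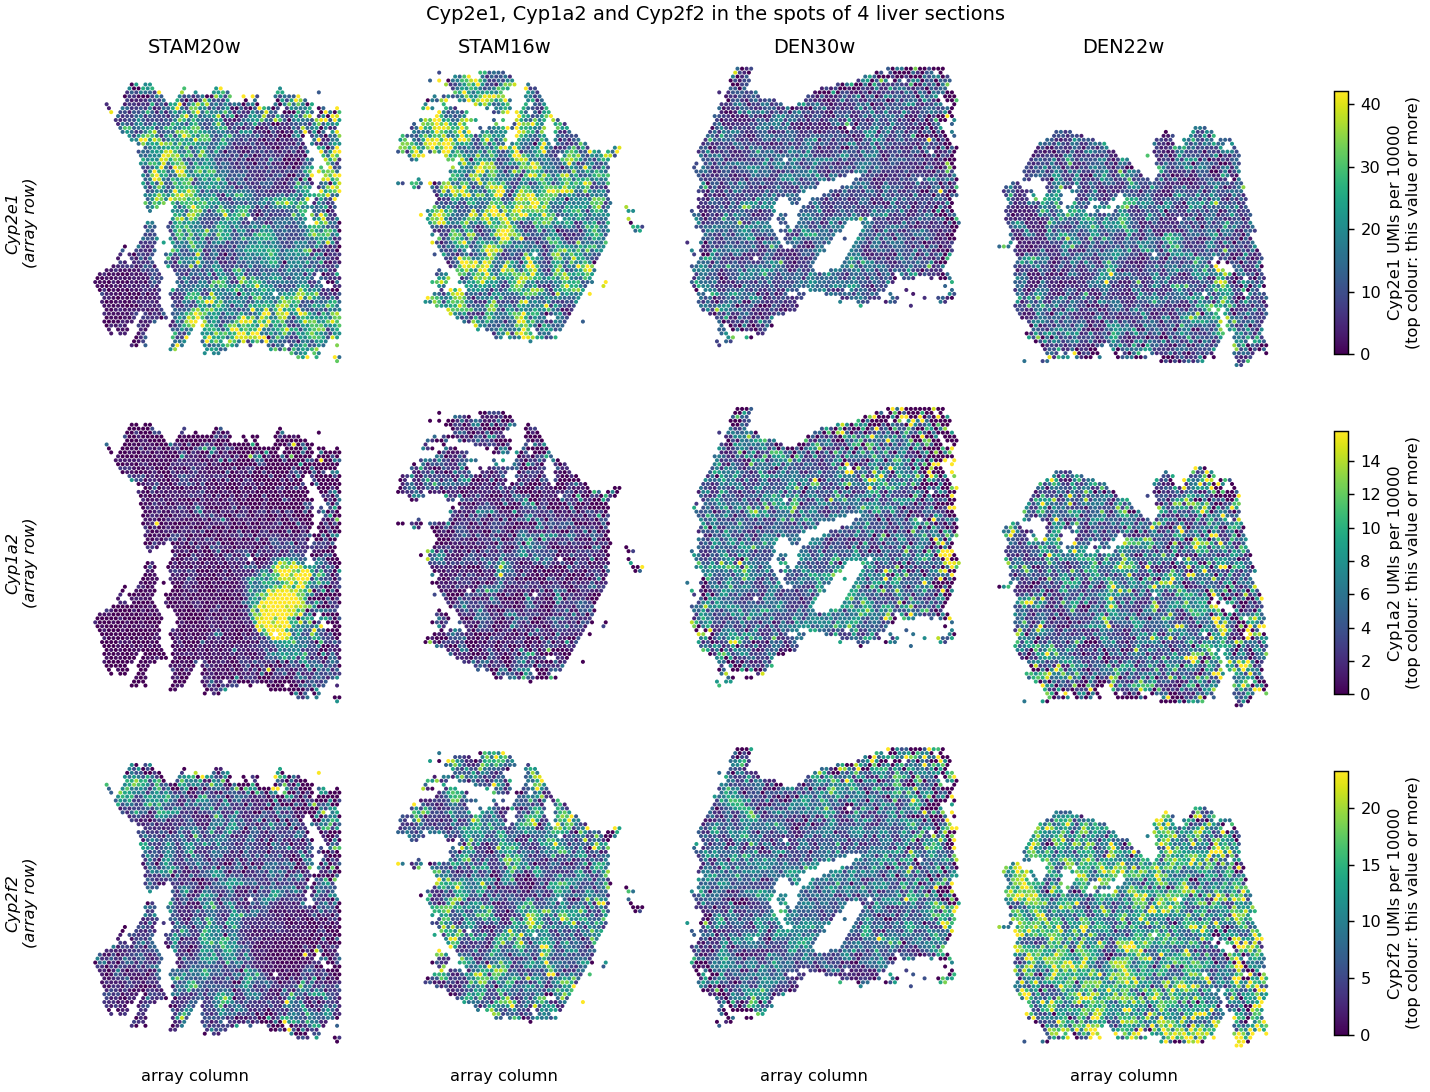
Maps of the 4 sections (columns) for Cyp2e1, Cyp1a2 and Cyp2f2 (rows), each dot a kept spot at its array column and row and its colour the UMIs of the gene per 10000 UMIs of the spot, on 1 colour scale per gene that ends at the 98th percentile over all sections. Cyp2e1 and Cyp2f2 make small alternating patches in STAM16w, Cyp1a2 is at its highest in 1 large patch of STAM20w, and Cyp2f2 is at its highest in DEN22w.

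The zonation of the 3 genes was tested with a zonation index that does not use them: the mean z score of 11 known pericentral genes, among them Glul and Oat, minus that of 11 known periportal genes, among them Sds, Hal and Pck1. The index genes were chosen with earlier results of these data known, so the contrast is no independent evidence of zonation. The spots of each section were split into 3 classes of equal size by the index, and the class with the highest index is called the pericentral class and the one with the lowest the periportal class. Between these classes all 3 genes followed the zones that textbooks give them, in each of the 4 sections. Cyp2e1 was at 2343 CPM in the pericentral and 1027 in the periportal class of STAM20w, 3367 and 1302 in STAM16w, 1504 and 639 in DEN30w, and 1819 and 598 in DEN22w. The ratio between classes was 2.28 in STAM20w, 2.59 in STAM16w, 2.35 in DEN30w and 3.04 in DEN22w, and the pericentral class was the higher one in all 4 sections. Cyp1a2 was at 751 CPM in the pericentral and 71.8 in the periportal class of STAM20w, 391 and 131 in STAM16w, 684 and 348 in DEN30w, and 798 and 330 in DEN22w. Its ratio was 10.5 in STAM20w (5.03 without the compact regions), against 2.99 in STAM16w, 1.97 in DEN30w and 2.42 in DEN22w. Cyp2f2 ran the other way, at 298 CPM in the pericentral and 877 in the periportal class of STAM20w, 467 and 1331 in STAM16w, 516 and 1036 in DEN30w, and 877 and 1723 in DEN22w.

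Summed per section and class and fitted with edgeR's quasi-likelihood test with section as a block, Cyp2e1 had a log2 fold change of 1.21 in favour of the pericentral class (SE 0.11, edgeR adjusted p = 3.09e-05). Cyp1a2 was higher there by 1.62 (SE 0.30, edgeR adjusted p = 0.00539), and Cyp2f2 was lower there (log2 fold change -1.40, SE 0.11, edgeR adjusted p = 9.89e-06). All 3 thus passed, while 10.3% of the 12687 genes tested passed in either direction, 4.87% as higher and 5.47% as lower in the pericentral class. The classes come from the same spots as the counts, so the size of the contrast also depends on how sharply the index separates zones. The Cyp1a2 value was 1.14 without STAM20w and 1.38 without its compact regions, and still passed both times (edgeR adjusted p = 0.0355 at the highest when any section was left out). Without the section block 1 gene was called, and none of these 3, since levels of the sections then enter the spread.

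RNA of other cell types and depth moved with the classes in the DEN+CCl4 sections. The 10 markers of stellate cells and fibroblasts summed to 442 CPM in the pericentral and 316 in the periportal class of STAM20w and to 275 and 238 in STAM16w, against 839 and 355 in DEN30w and 526 and 232 in DEN22w. The 12 macrophage markers summed to 1036 and 798 CPM in STAM20w and to 674 and 626 in STAM16w, against 1493 and 800 in DEN30w and 1067 and 523 in DEN22w. Both sums were thus higher in the pericentral class of every section, and most so in DEN+CCl4. In the edgeR fit 7 of 10 stellate and 8 of 12 macrophage markers were higher and 1 stellate marker was lower, 1 of 6 tested lymphoid markers was higher, 1 of 8 cholangiocyte markers was lower, and none of the endothelial, neutrophil or erythroid markers passed. The 10 markers of lymphoid and plasma cells summed to 17.1 to 84.8 CPM in the classes of the other 3 sections, but to 892 in the pericentral and 221 in the periportal class of DEN30w. The 8 cholangiocyte markers, of the portal end, summed to 305 CPM in the pericentral and 234 in the periportal class of DEN30w. Their order was the opposite elsewhere, with 221 and 414 CPM in STAM20w, 53.0 and 193 in STAM16w, and 128 and 197 in DEN22w. Median UMIs per spot were 14018.5 in the pericentral and 12126 in the periportal class of STAM20w, 10310 and 9289 in STAM16w, 8769 and 10715 in DEN30w, and 5970 and 9624 in DEN22w. With the 20% of spots richest in such markers left out of each section, the contrast kept its calls for all 3 genes, and the log2 ratio of Cyp2f2 was -0.88 in DEN30w and -0.84 in DEN22w, against -1.01 and -0.97 with all kept spots.

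The gradient was followed over 5 bins of equal size by the index, from bin 1 at the periportal end to bin 5 at the pericentral end. Cyp2e1 was at 1114, 1632, 2126, 2914 and 3592 CPM from bin 1 to bin 5 in STAM16w, at 567, 773, 1111, 1372 and 1585 in DEN30w and at 548, 715, 1084, 1498 and 2019 in DEN22w. In STAM20w it was at 900, 1276, 1973, 2574 and 2185 CPM, so that its highest level was in bin 4 and not at the pericentral end. With the compact regions left out and the bins drawn anew, bins 4 and 5 of STAM20w had 2633 and 2676 CPM. Cyp1a2 in STAM20w was at 69.6, 89.2, 112, 201 and 1034 CPM, with most of its increase in bin 5. The other 3 sections had no such step, with 285.5 and 452.5 CPM in bins 4 and 5 of STAM16w, 625.5 and 721 in DEN30w and 671 and 880 in DEN22w. Without the compact regions bins 4 and 5 of STAM20w had 200.3 and 555 CPM of Cyp1a2. Cyp2f2 was lower in each further bin in all 4 sections, at 974.5 in bin 1 and 236 in bin 5 of STAM20w, 1441 and 424 in STAM16w, 1080 and 483 in DEN30w, and 1756 and 812 in DEN22w.

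**Figure D2:**
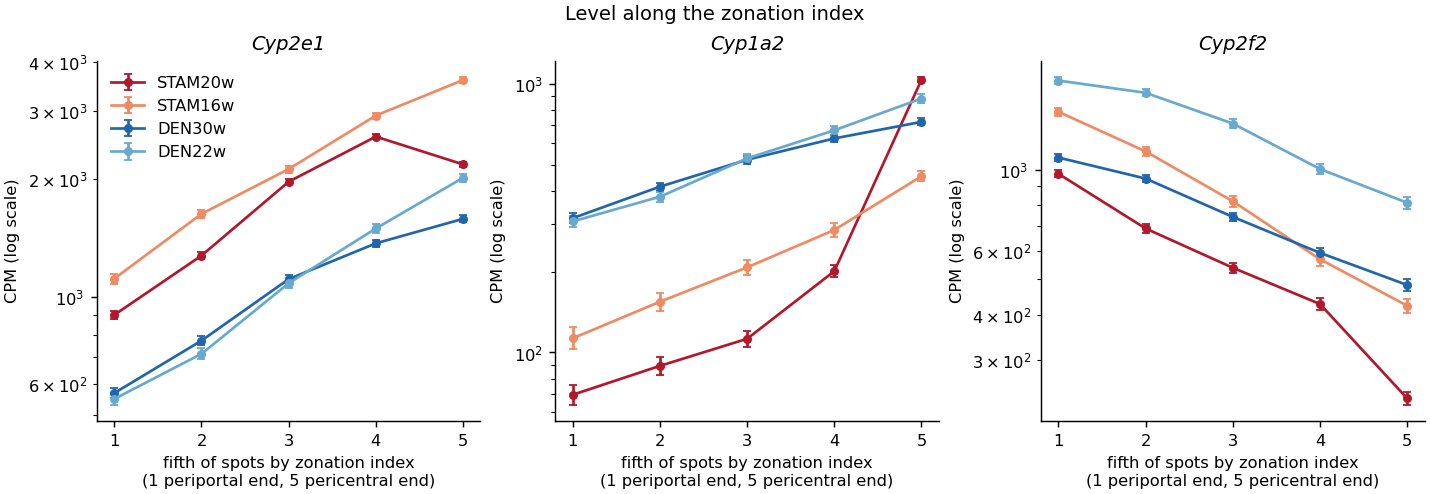
CPM (log scale) of each gene in 5 equal bins of the spots of each section by zonation index, from the periportal end (1) to the pericentral end (5); points are levels of 1 section and bars exact Poisson 95% intervals. Cyp2e1 and Cyp1a2 are higher and Cyp2f2 lower toward the pericentral end, except Cyp2e1 in STAM20w, at 2574 CPM in bin 4 and 2185 in bin 5.

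The difference between classes was then compared between models, as an interaction in the same fit. On the log2 scale the Cyp1a2 ratio was 3.39 in STAM20w (2.33 without the compact regions) and 1.58 in STAM16w, against 0.98 in DEN30w and 1.28 in DEN22w. It was larger in STAM by 1.52 (SE 0.40, edgeR adjusted p = 0.159), which did not pass. The Cyp2f2 ratio was -1.55 in STAM20w and -1.51 in STAM16w, against -1.01 in DEN30w and -0.97 in DEN22w, a difference of -0.39 (SE 0.15, edgeR adjusted p = 0.297). The Cyp2e1 ratio was 1.19 in STAM20w and 1.37 in STAM16w, against 1.23 in DEN30w and 1.60 in DEN22w, a difference of 0.01 (SE 0.18, edgeR adjusted p = 0.99), and the models overlapped. None of the 3 passed with edgeR, where 0.253% of 13436 genes did, 0.0744% as larger and 0.179% as smaller in STAM. An unadjusted p under 0.05 was found for 2 of the 3 and for 12.7% of all genes tested. DESeq2 called Cyp2f2 (adjusted p = 0.0433) and not the other two. The Cyp1a2 difference was 0.94 without the compact regions of STAM20w (edgeR adjusted p = 0.0364), 0.60 without the whole section (edgeR adjusted p = 0.000812) and 2.34 without STAM16w (edgeR adjusted p = 3.72e-58), where the lone STAM section is assumed to vary like the others, so that its size moved with which STAM section was in the fit.

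Distance from the central vein was also read from Glul, the glutamine synthetase of the hepatocytes that line the vein. Glul-high spots were the top 5% of spots by Glul per UMI with at least 2 Glul UMIs, and spots were grouped by their steps on the array to the nearest one. In STAM16w, which had 103 such spots, Cyp2e1 was at 3846 CPM in them and at 3091, 2302 and 1979 CPM 1, 2 and 3 steps away, with 1907 to 2019 CPM further out. Cyp1a2 there was at 543, 346, 242 and 199 CPM from 0 to 3 steps, and Cyp2f2 at 381, 540, 831 and 971 CPM. The gradients of all 3 genes thus ran mostly within 3 steps. In DEN22w, with 86 Glul-high spots, Cyp2e1 was at 2032, 1456, 1113 and 980 CPM from 0 to 3 steps and Cyp2f2 at 949, 1106, 1341 and 1427 CPM. In DEN30w, also with 86, the gradient of Cyp2e1 was shallower, with 1385 CPM at 0 and 998 at 2 steps. That of Cyp1a2 was shallower too, at 655 and 508 CPM against 919 and 539 in DEN22w. Cyp2f2 was at 507 CPM at 0 and 768 at 2 steps in DEN30w, relative to its level no shallower than in DEN22w. Glul itself was at 454 CPM in STAM20w and 569 in STAM16w, against 53.7 in DEN30w and 57.8 in DEN22w, so that Glul-high spots rest on few UMIs in DEN+CCl4.

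STAM20w differed from this picture. Cyp2e1 was nearly level around its 133 Glul-high spots, at 2177, 2093, 2159, 2111 and 2048 CPM from 0 to 4 steps, and was at 1425 CPM 6 or more steps away. Cyp1a2 was at 1487 CPM in the Glul-high spots, 927 at 1 step, 395 at 2 steps and 81.4 CPM 6 or more steps away. Cyp2f2 was at 171 CPM in them and 564 CPM at 2 steps. Of these Glul-high spots 58, or 43.6%, lay in the Maoa-Plat-Nupr1 region. With the compact regions left out and 99 Glul-high spots chosen anew among the rest, Cyp2e1 was at 2792, 2526, 2275 and 2141 CPM from 0 to 3 steps and Cyp1a2 at 839, 404, 254 and 181 CPM. Cyp2f2 was then at 295, 468, 626 and 669 CPM, so that all 3 genes had a gradient around these spots.

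**Figure D3:**
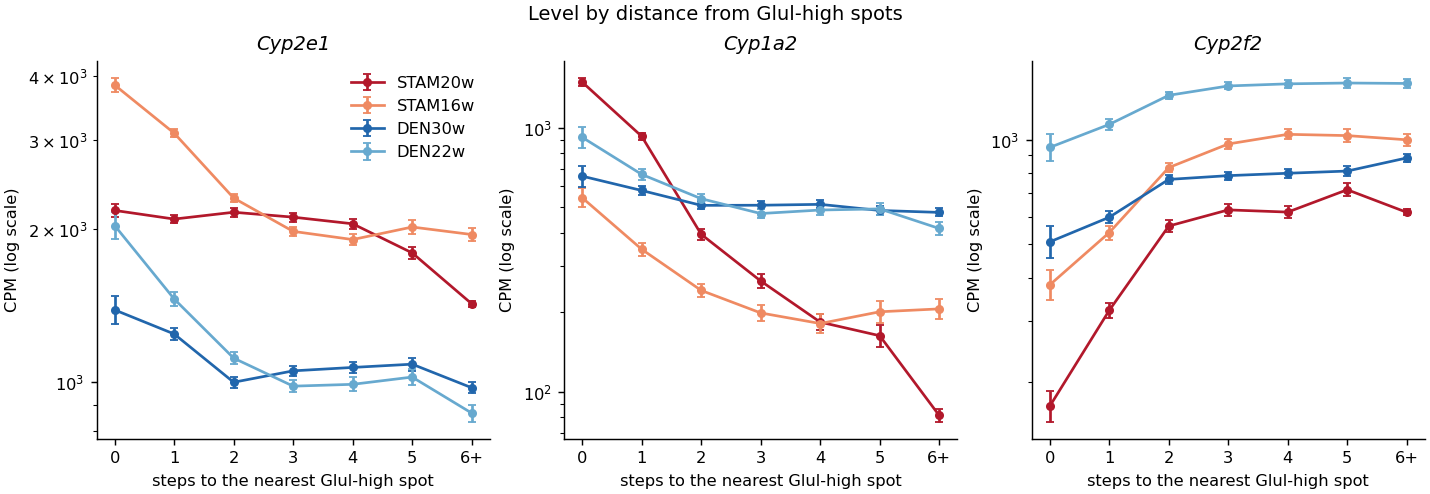
CPM (log scale) of each gene by steps on the array to the nearest Glul-high spot, with 6+ for 6 or more steps; points are levels of 1 section and bars exact Poisson 95% intervals. Cyp1a2 and Cyp2e1 are highest at 0 steps and Cyp2f2 is lowest there, with Cyp2e1 in STAM20w nearly level from 0 to 4 steps, between 2177 and 2048 CPM.

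Bile ducts mark the portal end, and spots high in 5 duct markers (Krt19, Krt7, Epcam, Cldn7 and Pkhd1) were used in the same way. In STAM20w Cyp2f2 was at 300 CPM in 76 duct-marker spots and 663 CPM 6 or more steps away, while Cyp1a2 was at 631 and 158 CPM. In the rest of the section outside the compact regions, with 57 such spots chosen anew, Cyp2f2 was at 443 and 657 CPM and Cyp1a2 at 182 and 189 CPM. Cyp2e1 was at 1268 and 2040 CPM there. In DEN30w, with 54 such spots, Cyp2f2 was at 507 and 825 CPM and Cyp1a2 at 618 and 521 CPM. In the earlier sections the order of Cyp2f2 was the opposite: 1322 CPM in 19 spots and 815 CPM far away in STAM16w, and 1557 CPM in 17 spots and 1301 CPM far away in DEN22w. Cyp2e1 was lower at duct-marker spots than far away in 3 sections, at 980 and 1953 CPM in STAM20w, 1427 and 2392 in STAM16w and 711 and 1159 in DEN22w, but was at 1247 and 1047 CPM in DEN30w. Cyp2f2 was thus low at duct-marker spots in the later and high in the earlier section of each model, a difference with 1 section on each side and no test. The sets of spots were unlike, with 76 and 54 in the later and 19 and 17 in the earlier sections. In DEN30w the 8 cholangiocyte markers were higher in the pericentral class, so duct-marker spots there may not mark the portal end. In STAM20w without the compact regions Cyp2f2 was already at 633 CPM 1 step away.

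The 3 genes differed widely between the regions of STAM20w. The Maoa-Plat-Nupr1 region, 174 spots with a median of 24943.5 UMIs, was at 1568 CPM of Cyp1a2 (1531 to 1605), against 186 CPM in all other spots of the section. Cyp2f2 was at 143 CPM there against 608 in all other spots, while Cyp2e1, at 1641 CPM, was below the 1816 CPM of the other spots. Pericentral index genes were high in it as well, with 1249 CPM of Glul and 2508 of Oat, and periportal ones low, with 63.2 CPM of Sds. The region led by Lect2, Cbr3 and Maoa, 188 spots and not compact, had 738 CPM of Cyp1a2, 2452 of Cyp2e1 and 378 of Cyp2f2.

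In the Afp-Fabp4-Fabp5 region, 228 spots led by a fetal liver and tumour gene, all 3 genes were low together: 416 CPM of Cyp2e1 against 1924 in all other spots, 37.7 of Cyp1a2 against 366, and 354 of Cyp2f2 against 576. The Cib3-Gsta1-Apoc2 region, 269 spots, had 737 CPM of Cyp2e1 against 1849 in all other spots, 96.9 of Cyp1a2 against 350.1, and 468 of Cyp2f2 against 561. Cyp2e1 and Cyp1a2 thus lay further below the other spots than Cyp2f2 did. The compact regions held 53.4% of the section's Cyp1a2 UMIs, 13.9% of its Cyp2e1 UMIs and 12.1% of its Cyp2f2 UMIs. Without them STAM20w was at 2038 CPM of Cyp2e1, 207.8 of Cyp1a2 and 645 of Cyp2f2. The 80% rule was set after seeing the regions, and 2 further regions lay just outside it at 79.3%, led by Noct, Saa2 and Saa1 and by Nupr1, Ankrd1 and Spp1. A region is named by its leading genes and not as a cell type or a diagnosis. A shallow region of 676 spots with a median of 2099.5 UMIs in DEN30w had 920 CPM of Cyp2e1 and 793 of Cyp2f2, close to the 1061 and 780 of the section.

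**Figure D4:**
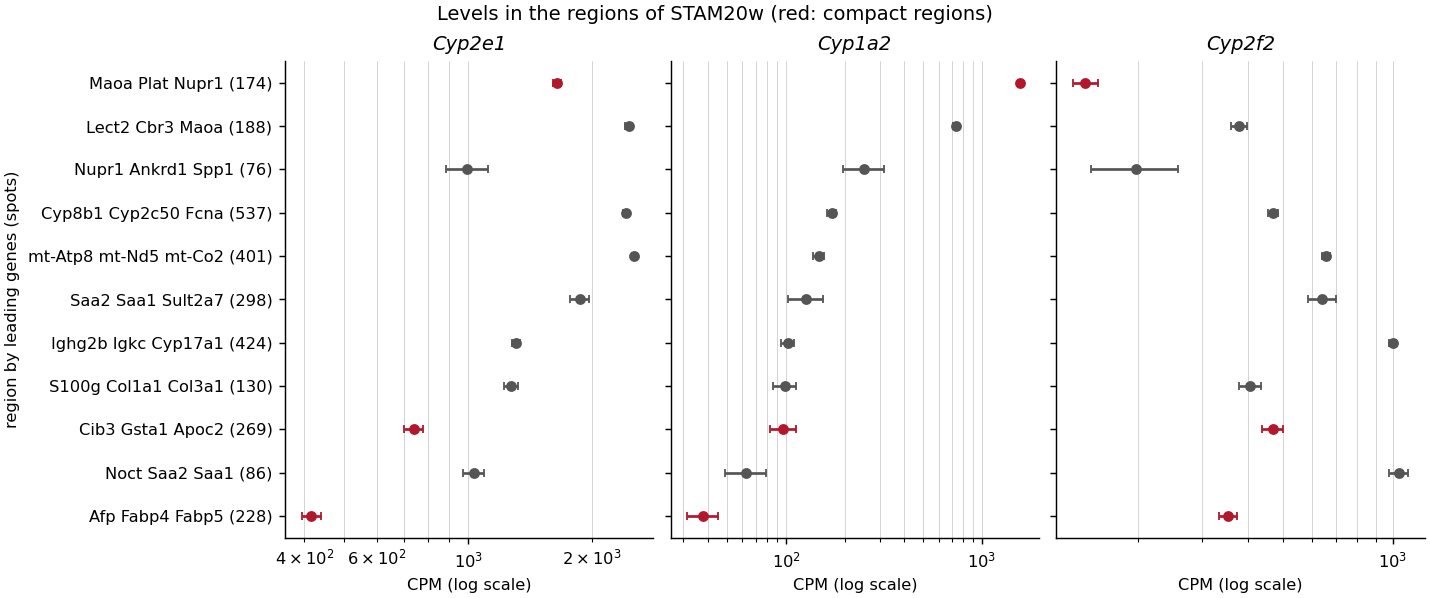
CPM (log scale) of the 3 genes in the 11 regions of STAM20w with at least 50 spots, named by their 3 leading genes with the number of spots and ordered by Cyp1a2; bars are exact Poisson 95% intervals and red marks compact regions. Cyp1a2 runs from 37.7 CPM in the Afp-led to 1568 CPM in the Maoa-led region, where Cyp2f2 is at its lowest, 143 CPM.

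Correlations between spots describe the same relation without an index. They share the library and depth of their section, are lowered by counting error in shallow spots, and carry no p. On the scale log2(UMIs per 10000 + 1), Cyp2e1 and Cyp1a2 were positively correlated in each section, with r of 0.29 in STAM20w, 0.40 in STAM16w, 0.26 in DEN30w and 0.32 in DEN22w (mean 0.32 ± 0.06, SD, n = 4). Cyp2e1 and Cyp2f2 had -0.03 in STAM20w, -0.53 in STAM16w, -0.16 in DEN30w and -0.31 in DEN22w (mean -0.26 ± 0.22, SD, n = 4). Cyp1a2 and Cyp2f2 had -0.19, -0.32, -0.05 and -0.20 in the same order (mean -0.19 ± 0.11, SD, n = 4). Spots above the section median of both genes were counted as well: 11.7% of the 2080 spots of STAM16w were above both medians of Cyp2e1 and Cyp2f2, and 23.2% in STAM20w, 17.3% in DEN30w and 15.8% in DEN22w, where independent genes would give 25%.

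Counting error hides part of these relations, and covariances of counts divided by the spread beyond counting error were therefore computed, a choice made after seeing the data. Cyp2e1 and Cyp1a2 then had 0.06 in STAM20w (0.23 without the compact regions) but 0.80 in STAM16w, 0.85 in DEN30w and 0.90 in DEN22w. Cyp2e1 and Cyp2f2 had -0.23 in STAM20w (-0.54 without the compact regions) but -0.86 in STAM16w, -0.72 in DEN30w and -0.81 in DEN22w. Cyp1a2 and Cyp2f2 had -0.57 in STAM20w, -0.69 in STAM16w, -0.69 in DEN30w and -0.79 in DEN22w. Without the compact regions the last value in STAM20w was -0.45. On this scale both pairs with Cyp2e1 were far closer to 0 in STAM20w than in the other 3 sections.

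Each gene was alike in touching spots. Moran's I, here the correlation between touching spots, was 0.54 for Cyp2e1 in STAM20w, 0.42 in STAM16w, 0.24 in DEN30w and 0.26 in DEN22w, which ranked it 36, 14, 30 and 19 among the 4941 to 5710 genes at 20 CPM or more in a section. For Cyp2f2 it was 0.37 in STAM20w, 0.35 in STAM16w, 0.20 in DEN30w and 0.20 in DEN22w, with ranks of 101, 19, 63 and 31. For Cyp1a2 it was 0.61 in STAM20w, 0.21 in STAM16w, 0.14 in DEN30w and 0.17 in DEN22w, with ranks of 15, 67, 176 and 44. The median over genes was 0.011 to 0.038. With spots thinned to 2000 UMIs Moran's I of Cyp1a2 in DEN30w was 0.0052, so its autocorrelation was not detectable at that depth; corrected for counting error it was 0.49. Corrected in the same way, Moran's I lay between 0.44 and 0.62 for Cyp2e1 and between 0.49 and 0.73 for Cyp2f2 over the 4 sections, and for Cyp1a2 it was 0.94 in STAM20w (0.58 without the compact regions), 0.50 in STAM16w, 0.49 in DEN30w and 0.53 in DEN22w.

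The reach of the pattern was read from spots further apart. In STAM16w the correlation of Cyp2e1 between spots was 0.42 at 1 step, 0.20 at 2, 0.069 at 3 and 0.0040 at 5 steps, and that of Cyp2f2 was 0.35, 0.17, 0.059 and -0.0088. Cyp2e1 in 1 spot against Cyp2f2 in the other was -0.35 at 1 step, -0.16 at 2 and 0.0021 at 4 steps there. In STAM20w at 10 steps Cyp1a2 still had 0.32, Cyp2e1 0.19 and Cyp2f2 0.085, and Cyp2e1 against Cyp2f2 was positive at each distance, from 0.030 at 1 step to 0.092 at 3. Without the compact regions the values at 10 steps were 0.12 for Cyp1a2, 0.035 for Cyp2e1 and 0.052 for Cyp2f2, and Cyp2e1 against Cyp2f2 was -0.059 at 1 step. In DEN+CCl4 Cyp2e1 was at 0.11 in DEN30w and 0.060 in DEN22w at 3 steps, and at 0.062 and 0.0065 at 10 steps.

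**Figure D5:**
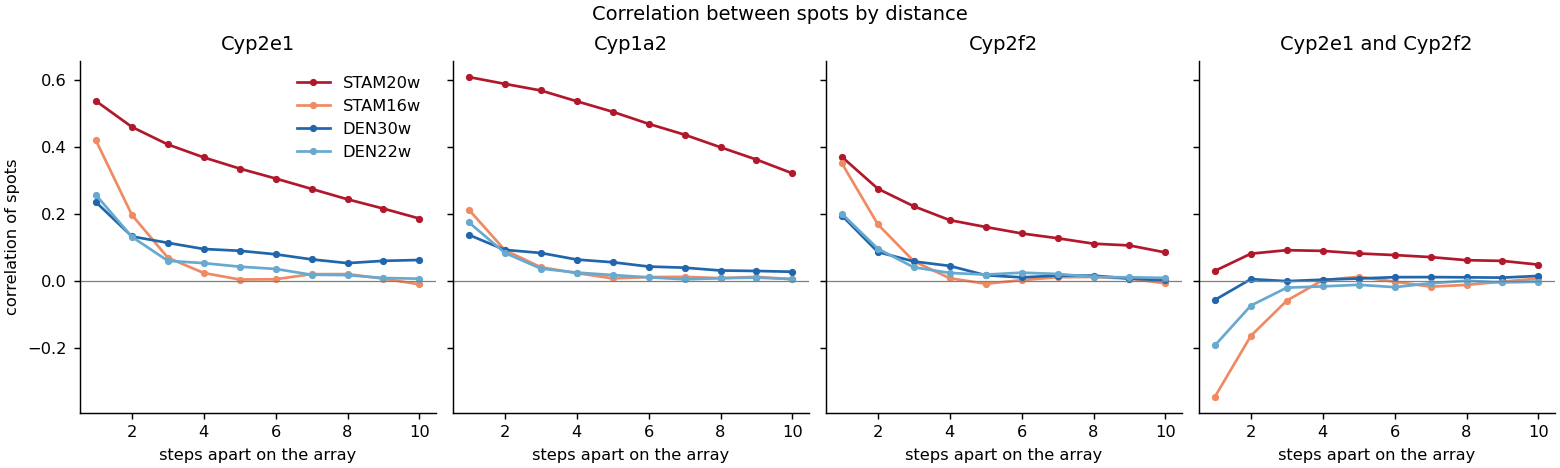
Correlation of log2(UMIs per 10000 + 1) between spots 1 to 10 steps apart on the array, for each gene and for Cyp2e1 in 1 spot against Cyp2f2 in the other; lines are sections. STAM16w drops to about 0 within 5 steps, while STAM20w stays above the other sections, with 0.32 for Cyp1a2 at 10 steps.

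The genes whose spot pattern was most like each member were ranked by their mean correlation over the 4 sections among 1952 other genes at 50 CPM or more in each section. For Cyp2e1 the 5 highest were Rnase4, a secreted ribonuclease (mean r 0.41), Rgn, a calcium-binding lactonase (0.40), the organic anion transporter Slco1b2 (0.38), the steroid reductase Akr1c6 (0.37) and Gulo, the last enzyme of vitamin C synthesis (0.35), and Cyp1a2 ranked 7 with 0.32. For Cyp1a2 they were Cyp2a5, the coumarin hydroxylase of mouse (0.34), the glutathione transferase Gstm1 (0.34), the hepatokine Lect2 (0.32), Cyp2e1 (0.32) and Gulo (0.31). The value of Cyp2a5 ran from 0.16 in DEN30w to 0.59 in STAM20w. For Cyp2f2 the 5 highest were the antitrypsin gene Serpina1c (0.43), the serine dehydratase Sds (0.40), Pck1 of glucose production (0.40), the haem carrier Hpx (0.39) and Serpina1b (0.38). Serpina1b and Serpina1c are near-identical copies, so reads may be divided between them unevenly. At the other end, Cyp2e1 was the gene least like Cyp2f2, rank 1952 of 1952 with a mean r of -0.26, followed by Cyp2a5 (-0.22), Lect2 (-0.20), Glul (-0.20) and Cyp1a2 (-0.19). Of these 5, Cyp2e1 was the lowest in STAM16w, DEN30w and DEN22w. In STAM20w it had -0.03, against -0.24 for Cyp2a5, -0.21 for Lect2, -0.22 for Glul and -0.19 for Cyp1a2. The 5 least like Cyp2e1 were Sds (-0.27), Cyp2f2 (-0.26), the lipid droplet protein Hsd17b13 (-0.26), Serpina1c (-0.26) and Aldh1b1 (-0.26). Serpina1c had 0.048 with Cyp2e1 in STAM20w and a negative value in each other section. Among those least like Cyp1a2 were Serpina1b (-0.26), Pck1 (-0.25), Serpina1c (-0.25) and Sds (-0.21). The median over the 1952 genes was 0.038 for Cyp2e1, 0.045 for Cyp1a2 and 0.035 for Cyp2f2. Of the genes named here, Rgn, Gulo, Lect2, Glul, Sds, Pck1, Hsd17b13 and Aldh1b1 belong to the zonation index. The index thus holds genes that vary with the members in these same spots.

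Other genes of the pathway were read from the same contrast between classes, where the median log2 fold change of all genes tested was -0.018. Of all genes tested, 4.87% passed as higher and 5.47% as lower in the pericentral class, the shares to set beside the counts per list. Of 9 tested xenobiotic receptors and their partners, 3 were higher in the pericentral class and 1 was lower. Ahr, the receptor that induces Cyp1a2, was higher by 1.04 (SE 0.11, edgeR adjusted p = 8.19e-05), at 37.9 CPM in the pericentral and 14.5 in the periportal class of STAM20w, 25.2 and 10.6 in STAM16w, 40.8 and 21.2 in DEN30w, and 27.3 and 11.5 in DEN22w. Nr1i3, the receptor CAR, was higher by 0.61 (SE 0.13, edgeR adjusted p = 0.0109) and Nfe2l2, which encodes NRF2, by 0.28 (SE 0.08, edgeR adjusted p = 0.0341). Of 12 hepatocyte transcription factors 0 were higher and 1 was lower, Cebpa (-0.34, SE 0.08, edgeR adjusted p = 0.0251), and the median of the 12 was -0.19. From CPM, the log2 ratio of Cebpa was -0.02 in STAM20w, -0.34 in STAM16w, -0.23 in DEN30w and -0.18 in DEN22w. Of 14 genes for electron donors and haem synthesis or breakdown, 3 were higher and 0 lower: the haem oxygenase Hmox1 by 0.85, the haem synthesis enzyme Alad by 0.33 and the P450 oxidoreductase Por by 0.32.

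Of 15 tested Wnt targets and ligands, 12 were higher and 0 lower, with a median of 1.27 on the log2 scale. Sp5, a Wnt-induced repressor, was higher by 2.71 (SE 0.31, edgeR adjusted p = 0.000192), Lgr5, the R-spondin receptor, by 2.47 (SE 0.28, edgeR adjusted p = 0.000174) and the feedback inhibitor Nkd1 by 2.06 (SE 0.36, edgeR adjusted p = 0.00346). The log2 ratio of Nkd1 was 3.39 in STAM20w and 1.28 in STAM16w, against 0.88 in DEN30w and 1.39 in DEN22w. In the same order that of Sp5 was 3.83, 2.36, 2.41 and 1.52, and that of Lgr5 was 3.25, 3.19, 1.84 and 3.25. Periportal levels of Sp5 and Lgr5 were near the floor, down to 0.713 CPM of Sp5 in DEN30w and 0.428 CPM of Lgr5 in DEN22w. Nkd1 and Sp5 thus had their highest value in STAM20w, as Cyp1a2 did, while Lgr5 was as high in DEN22w, on few UMIs. These ratios were not computed without the compact regions, and a link to Cyp1a2 was not tested. Of 23 tested other genes of the Cyp1 and Cyp2 families, 8 were higher and 6 lower, with a median of 0.021, so the family as such had no common zone. Cyp2c38 (1.78) and Cyp2a5 (1.63) were higher and Cyp2b10 (-1.47) lower. Some of these levels were near the floor. Cyp2b10 was at 0.554 CPM in the pericentral and 1.94 in the periportal class of STAM16w, and Cyp2c38 at 2.94 and 1.18 in DEN22w. Reads of close paralogs in these families may be shared unevenly. Of 19 tested other pericentral hepatocyte genes 13 were higher and 1 lower (median 0.68), led by the carboxylate carrier Slc13a3 (1.70) and the glutathione transferases Gstm2 (1.56) and Gstm3 (1.49). Of 19 other periportal genes 0 were higher and 16 lower (median -0.69), led by Gldc of glycine breakdown (-1.47), Hsd17b6 (-1.40) and Asl of the urea cycle (-1.03). These lists were drawn up with earlier results of these data known, so their direction is no independent evidence.

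The levels of whole sections were compared between models, 2 sections against 2. Cyp2e1 averaged 2056 ± 366 CPM in STAM and 1071 ± 13.2 in DEN+CCl4 (SD, n = 2 each, edgeR log2 fold change 1.12, SE 0.35, adjusted p = 0.151 over all genes). Cyp1a2 averaged 293 ± 63.9 CPM in STAM and 514 ± 3.91 in DEN+CCl4 (SD, n = 2 each, edgeR log2 fold change -0.65, SE 0.27, adjusted p = 0.22 over all genes). Cyp2f2 averaged 708 ± 214 CPM in STAM and 1075 ± 417 in DEN+CCl4 (SD, n = 2 each, edgeR log2 fold change -0.43, SE 0.46, adjusted p = 0.608 over all genes). None of the 3 passed, where 0.437% of 14417 genes did (0.291% higher and 0.146% lower in STAM), and an unadjusted p under 0.05 was found for 1 of the 3 and for 22.9% of all genes tested. The log2 fold change of Cyp1a2 without the compact regions of STAM20w was -0.998 (edgeR adjusted p = 0.104). DESeq2 called 2 of them, Cyp2e1 (adjusted p = 0.00163) and Cyp1a2 (adjusted p = 0.0207), in a fit that called 2890 genes against 63 with edgeR. The sections of the models did not overlap for Cyp2e1 and Cyp1a2, as for 57.7% of the genes tested. Leaving out DEN22w turned the sign of Cyp2f2, to 0.12.

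Between times there was 1 section on each side and so no test. Within STAM, the later over the earlier section was 0.776 for Cyp2e1 (exact interval 0.768 to 0.786), 1.36 for Cyp1a2 (1.32 to 1.41) and 0.648 for Cyp2f2 (0.635 to 0.661). Within DEN+CCl4 it was 0.983 for Cyp2e1 (0.967 to 0.999), 0.989 for Cyp1a2 (0.966 to 1.01) and 0.569 for Cyp2f2 (0.560 to 0.579). None reached 2-fold, as did 11.1% of 2775 genes at 50 CPM or more in STAM (7.42% higher and 3.71% lower later) and 4.09% of 2906 in DEN+CCl4 (2.58% higher and 1.51% lower later). The Cyp2f2 ratio was the lowest of the 3 in both models, and 8.76% of such genes in STAM and 2.17% in DEN+CCl4 had a lower ratio than Cyp2f2. The STAM value of Cyp1a2 rests on the compact regions: on the log2 scale it was 0.45 with them, -0.26 without them, and -0.996 when medians over spots were compared.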

How the data were processed

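Per the submitters' processing notes, Space Ranger 1.3.1 and STAR were used with build mm10. Other settings are not given in the sources used here. The deposited matrices hold raw UMI counts per gene and spot, which the authors did not normalize, with 1 matrix per section; spot positions came from the deposited position tables. Tissue images and any tumour annotation were not used here. No doublet caller was run, since a spot is a small region that can hold several cells.

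Spots of at least 500 UMIs and 250 genes were kept. Counts were summed per section, or per section and class of the zonation index, and tested with edgeR 4.0.16 (quasi-likelihood test, TMM, filterByExpr, limma 3.58.1, R 4.3.3) with Benjamini-Hochberg adjustment over all genes at 0.05; DESeq2 1.42.0 was an alternative. Correlations and Moran's I used log2(counts per 10000 + 1) within a section and have no test. Regions came from Leiden clustering (2000 variable genes without the 3 members, 20 components, 15 neighbours, resolution 0.6). Scripts were tested on simulated data. Section and not spot was the replicate.

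The members, the gene lists and the index genes were chosen with earlier results of these data known. Genes named beside the 3 members were the 5 most and the 5 least like each one (1 of them is not reported here) and at most 3 per list with the largest change among those past the threshold; region names and index genes given beside a region were chosen after their values were seen. Promoters, gene positions and starts came from RefSeq (GRCm38.p6), in which all 3 symbols matched.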

Additional observations from a re-analysis of the deposited data

Results flagged for a closer look

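Among 12 quantities of the 3 genes compared over the 4 sections, 1 had a section far from the other 3: Moran's I of Cyp1a2 was 0.609 in STAM20w, against 0.212 in STAM16w, 0.137 in DEN30w and 0.175 in DEN22w. The gap to the nearest section was 0.841 of the whole range, above Dixon's 95% critical value for 4 samples, and chance flags about 1 in 20 such groups. Without the compact regions Moran's I of Cyp1a2 in STAM20w was 0.343. The log2 ratio of Cyp1a2 between classes, 3.39 in STAM20w, had a gap of 0.749 and was not past that value.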

How the results depend on the processing

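Over 14 settings the contrast between classes kept its direction and its call for all 3 genes, with log2 values of 1.14 to 1.37 for Cyp2e1, 1.14 to 1.96 for Cyp1a2 and -1.55 to -1.29 for Cyp2f2. Without the section block they were 1.23, 1.44 and -1.37 (edgeR adjusted p = 0.9999 each) and 1 gene was called, since the sections' levels then enter the spread. Leaving out each section in turn gave 627 to 1394 called genes, 1.14 to 1.29 for Cyp2e1, 1.14 to 1.96 for Cyp1a2 and -1.48 to -1.29 for Cyp2f2. The section block pairs the classes of each section. Between models and times, no paired analysis was possible because each model and time has 1 section and the labels name no animals.

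For the contrast compared between models, DESeq2 called 61 genes and gave -0.40 for Cyp2f2 (DESeq2 adjusted p = 0.0433). No filter on low counts gave 476 genes and 1.55 for Cyp1a2 (edgeR adjusted p = 4.28e-18). Without the spots richest in other-cell markers Cyp2e1 was -0.059 and Cyp2f2 -0.62 (edgeR adjusted p = 0.164). Without the compact regions 61 genes were called, with -0.10 for Cyp2e1 and 0.94 for Cyp1a2. Leaving out each section gave 2 to 1289 genes, -0.22 to 0.21 for Cyp2e1 (-0.15 without STAM16w, -0.22 without DEN30w), 0.60 to 2.34 for Cyp1a2 and -0.49 to -0.36 for Cyp2f2.

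For the levels of the models, DESeq2 called 2890 genes, with 1.12 for Cyp2e1 and -0.65 for Cyp1a2 (-0.998 with edgeR without the compact regions), no filter gave 1872 genes and plain library sizes 14. Leaving out each section gave 2 to 922 genes, 0.82 to 1.33 for Cyp2e1, -0.83 to -0.53 for Cyp1a2 and -0.89 to 0.12 for Cyp2f2, with 0.12 without DEN22w. The cause of these shifts was not tested.

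For later against earlier sections, the STAM log2 values of Cyp2e1, Cyp1a2 and Cyp2f2 were -0.51, 0.30 and -0.77 with TMM sizes, -0.49, -0.996 and -0.81 as medians over spots, and -0.18, -0.26 and -0.41 without the compact regions. The DEN+CCl4 values with TMM sizes were -0.15, -0.14 and -0.94, and the median over spots gave -0.086 for Cyp2e1.

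Counting error limits the values per spot. The mean correlation of Cyp2e1 and Cyp1a2 was 0.65 corrected for it, 0.38 as Spearman's, 0.39 in spots of at least 3000 UMIs and 0.16 thinned to 2000 UMIs. Corrected, that of Cyp2e1 and Cyp2f2 was -0.65 and that of Cyp1a2 and Cyp2f2 -0.69, the second being -0.31 at 3000 UMIs. Over all deposited spots of DEN30w Cyp1a2 and Cyp2f2 had 0.019, the sign opposite to that of the kept spots. Mean Moran's I was 0.55 for Cyp2e1, 0.61 for Cyp1a2 and 0.58 for Cyp2f2 when corrected, and 0.21 for Cyp2e1 and 0.12 for Cyp2f2 when thinned. The correction and the removal of compact regions were chosen after seeing the data.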
